A study of Homo sapiens with 15 samples.

Results

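The interferon-stimulated genes described here are 39 genes that cells switch on after interferon binds its receptor. They were found by gene symbol in both expression tables of the series, and all 39 were present among the 19604 genes of each table. The cells were OCI-AML5, an established human acute myeloid leukaemia line, and total RNA was sequenced in 15 libraries that make up 5 groups of 3. For the drug experiment, cells were exposed for 4 h to 1000 nM ARV-825, exposed for 4 h to 1000 nM OTX015, or left untreated as the control, for which the labels name no vehicle. In the shRNA experiment, cells carried an shRNA against RUNX1 or a non-targeting shRNA (shNT) for 72 h. All 5 groups grew in medium with 20% serum and 10 ng/mL GM-CSF, the growth factor this line is kept in. OTX015 is a small molecule that occupies the bromodomains of BET proteins, readers of histone acetylation that help RNA polymerase II elongate. ARV-825 carries the OTX015 warhead, a linker and a pomalidomide-type ligand of cereblon, the substrate receptor of an E3 ubiquitin ligase, which leads to degradation of BET proteins. RUNX1 is a master regulator of blood formation, and the series title speaks of leukaemia cells with mutant RUNX1. The series calls its replicates biological triplicates, and all come from 1 cell line. Titles of the libraries with RUNX1 shRNA read Runx3, and the treatment label, which reads RUNX1, was followed.

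Type I interferons bind a receptor made of IFNAR1 and IFNAR2, and the attached kinases JAK1 and TYK2 phosphorylate STAT2. With IRF9 it takes part in ISGF3, a complex that binds the interferon-stimulated response element in the promoters of its target genes. The targets encode sensors of foreign RNA, proteins that block viral entry, replication or release, and regulators of the pathway itself, and many keep a low level of transcription without added interferon. Interferon gamma acts through a different promoter site, the gamma-activated site.

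The response element core searched for was GAAA, any 2 bases, GAAA, or its reverse complement, TTTC, any 2 bases, TTTC. RefSeq promoter windows of 300 bases (build GRCh38.p14) were at hand for 31 of the 39 genes, and 23 of them (74.2%) held at least 1 core, against 1195 of 27305 genes with a window (4.38%). By window, 27 of 41 windows of these genes held a core, against 3.57% of 35116 windows. The gamma-activated site core (TTC, any 3 bases, GAA, a palindrome) was found in 8 of the 31 genes (25.8%), against 9.38% of all genes with a window. A match of letters is a description and not a measured binding site, and no interferon response was measured here. The stretches below are 50 bases around the core nearest the annotated start, for genes that moved in different directions after the drugs. Other cores of a gene can lie outside its stretch. Capitals mark the response element cores that lie whole within a stretch, and a longer run of capitals is a pair of overlapping cores. The IFI6 stretch opens with the cut end of another core, in lower case. IFIT5, PARP9 and SAMD9 were lower with ARV-825 than in control, IFI6 and BST2 were higher, and ISG15 did not pass the test.
IFIT5, chr10:89414544-89414593, plus strand: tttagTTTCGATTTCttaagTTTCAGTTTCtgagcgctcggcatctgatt
PARP9, chr3:122564312-122564361, minus strand: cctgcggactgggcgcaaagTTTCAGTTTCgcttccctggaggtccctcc
SAMD9, chr7:93118086-93118135, minus strand: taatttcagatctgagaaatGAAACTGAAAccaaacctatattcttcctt
IFI6, chr1:27672256-27672305, minus strand: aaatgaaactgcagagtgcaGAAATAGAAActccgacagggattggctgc
BST2, chr19:17405725-17405774, minus strand: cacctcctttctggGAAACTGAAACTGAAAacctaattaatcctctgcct
ISG15, chr1:1013370-1013419, plus strand: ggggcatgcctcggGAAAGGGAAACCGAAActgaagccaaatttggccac

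**Figure D1:**
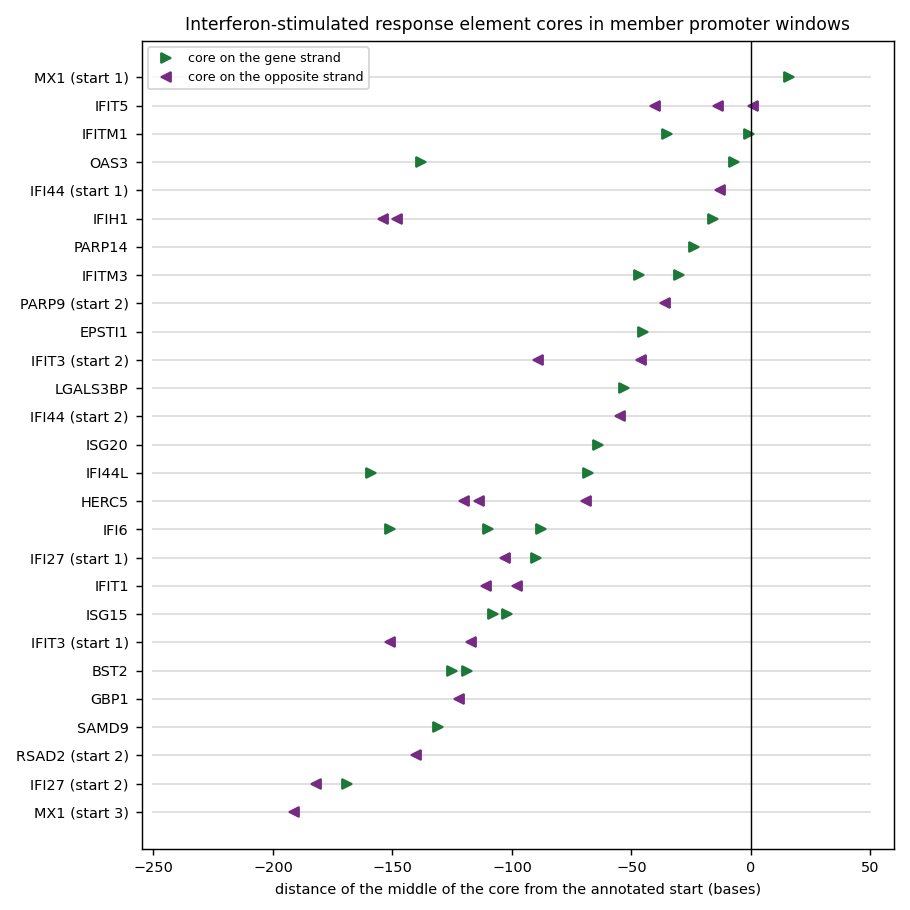
Positions of interferon-stimulated response element cores in the promoter windows of the genes that hold one, as the distance in bases of the middle of the core from the annotated start (vertical line), with right-pointing marks for cores on the gene strand and left-pointing marks for cores on the opposite strand. The grey lines span each window, and most cores lie upstream of the start.

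Genes with and without a core were found among both those that fell and those that rose. With ARV-825, of the 23 genes with a core 5 fell, 3 rose, 4 were tested and not called and 11 were too low to test. Over all tested genes 38.4% fell and 35.8% rose. In the same comparison, of the 8 genes with a window and no core 5 fell, 1 rose, 1 was not called and 1 was not tested. With OTX015, 6 fell and 1 rose among the genes with a core, and 4 fell and 1 rose among those with a window and no core, against 33.5% and 36.1% of all tested genes. XAF1 and CMPK2, with the largest falls of the 24 tested genes on the log2(FPKM + 1) scale with both drugs, and STAT2 were among the genes whose windows held no core. The search took only 2 bases between the repeats. The windows of XAF1, OAS1 and DDX58 hold GAAACGAAA, that of IFI35 holds GAAATGAAA and a window of CMPK2 holds TTTCGTTTC, which were not counted. A window without a core may therefore still hold a response element, and this was not tested.

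Levels are given in FPKM (fragments per unit of transcript length and library size), a unit inferred from the processing tools because the tables state none. The authors normalized the drug table and the shRNA table separately, so no test crosses them and levels set side by side across them are descriptions. Sequencing depth is unknown, which leaves no counting interval, and FPKM summed to between 554570 and 656995 per library. limma was run on log2(FPKM + 1), where changes of low genes are understated, for genes averaging 1 FPKM or more across the libraries fitted, and a call is an adjusted p under 0.05. RUNX1 was lower in every RUNX1 shRNA library (37.2, 42.9 and 36.0 FPKM) than in every shNT library (69.8, 72.2 and 69.8 FPKM), a log2 change of -0.85 (limma adjusted p = 3.71e-05), and RUNX3 did not pass the test (log2 change 0.07, limma adjusted p = 0.341). RUNX1 also fell with ARV-825 (log2 change -0.75, limma adjusted p = 2.38e-06). Of 10 myeloid leukaemia markers, 9 averaged at least 1 FPKM in each table, led by LYZ. Of 6 markers of plasmacytoid dendritic cells, the main blood source of interferon alpha, TCF4 and IL3RA did, and CLEC4C was at 0 in the drug table. Among T and NK cell markers NKG7 averaged 37.4 FPKM in the drug table and 4.30 FPKM in the shRNA table, while CD2 was at 0 in both.

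The basal level of the 39 genes was uneven. In control, 26 of them averaged 1 FPKM or more and 13 were below 1 FPKM, with a median of 2.35 FPKM. The same median was 1.09 FPKM with ARV-825, 1.46 FPKM with OTX015, 3.18 FPKM with RUNX1 shRNA and 2.67 FPKM with shNT. The highest in control was IFITM2, which limits virus entry (330.3 ± 9.05 FPKM, SD, n = 3), followed by BST2, or tetherin, which holds budding virus at the cell surface (107 ± 3.20), and the E3 ubiquitin ligase TRIM22 (71.0 ± 1.48). The lowest in control were GBP1, an interferon-induced GTPase (0.0226 FPKM), LGALS3BP (0.0830 FPKM) and IFI44L (0.0903 FPKM), and the libraries of IFI44L and LGALS3BP overlapped. Interferon genes themselves were near 0: 21 of 22 were found, every one was below 1 FPKM in each of the 15 libraries, and the highest single value was 0.27 FPKM for IFNA21.

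Some members stood at different levels in the control groups of both tables, which were normalized separately. CMPK2, a mitochondrial nucleotide kinase, averaged 5.44 FPKM in control and 20.5 FPKM in shNT, and OAS2 averaged 0.342 FPKM in control and 1.93 FPKM in shNT. IFIT2 went the other way, with 3.20 FPKM in control and 0.493 FPKM in shNT. The groups differ in time, in transduction and in normalization, which cannot be told apart.

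ARV-825 lowered more of the tested genes than it raised. Of the 39, 24 were high enough to test in the drug table, and 13 fell (54.2%, against 38.4% of all 10819 genes tested), 5 rose (20.8%, against 35.8% of all genes) and 6 were not called. The median log2 change was -0.21, against -0.01 over all tested genes, and 4 genes fell at least 2-fold on the log2(FPKM + 1) scale, against 8.16% of all tested genes: XAF1, CMPK2, PARP9 and IFIT5. PARP9 and SAMD9L reached the mean of 1 FPKM only through control, the group where they are high. Without both, 11 of 22 fell, 5 rose and 3 fell at least 2-fold. Of the 10 members with a mean of at least 5 FPKM, 3 fell and 3 rose when such genes alone were tested. Of all genes called in that fit, 50.5% rose. That mean runs over all drug libraries, treated ones included, so a fall lowers it. XAF1, SAMD9, CMPK2 and IFIT3 averaged 8.45, 5.52, 5.44 and 5.11 FPKM in control, fell with ARV-825 and were left out. IFI6 and IFIT2, which rose, were left out too, at 3.20 FPKM each in control. The even split therefore cannot show how members with a higher level in control moved. The largest rises among the 24 tested members were IFI6 and STAT2, both under 2-fold on the log2(FPKM + 1) scale. These are bulk samples, in which fewer cells of a type and less RNA per cell cannot be told apart.

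OTX015 also lowered more of the tested genes than it raised, and both comparisons use the same 3 control libraries. With OTX015, 14 of 24 fell (58.3%, against 33.5% of all tested genes), 2 rose (8.33%, against 36.1%) and 8 were not called. The median log2 change was -0.36, against 0.03 over all tested genes. On the log2(FPKM + 1) scale 3 genes fell at least 2-fold, against 4.96% of all tested genes. Without PARP9 and SAMD9L, 12 of 22 fell, 2 of them at least 2-fold. Of the 10 members with a mean of at least 5 FPKM, 6 fell and 1 rose, and of all genes called in that fit 53.0% rose. Side by side, 11 genes fell with both drugs: XAF1, CMPK2, PARP9, IFIT5, SAMD9L, IFIH1, IFIT3, TRIM22, HERC6, GBP2 and MX2. STAT2 and IFI6 rose with both, SAMD9 and DDX58 were called lower with ARV-825 alone, and ISG15, PARP14 and IFITM2 were called lower with OTX015 alone. HERC5, BST2 and IFIT2 were called higher with ARV-825 alone, and IFI35, IFIT1 and IFITM1 passed with neither. A call with 1 drug and not the other is not itself a difference between drugs, which is tested further on.

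**Figure D2:**
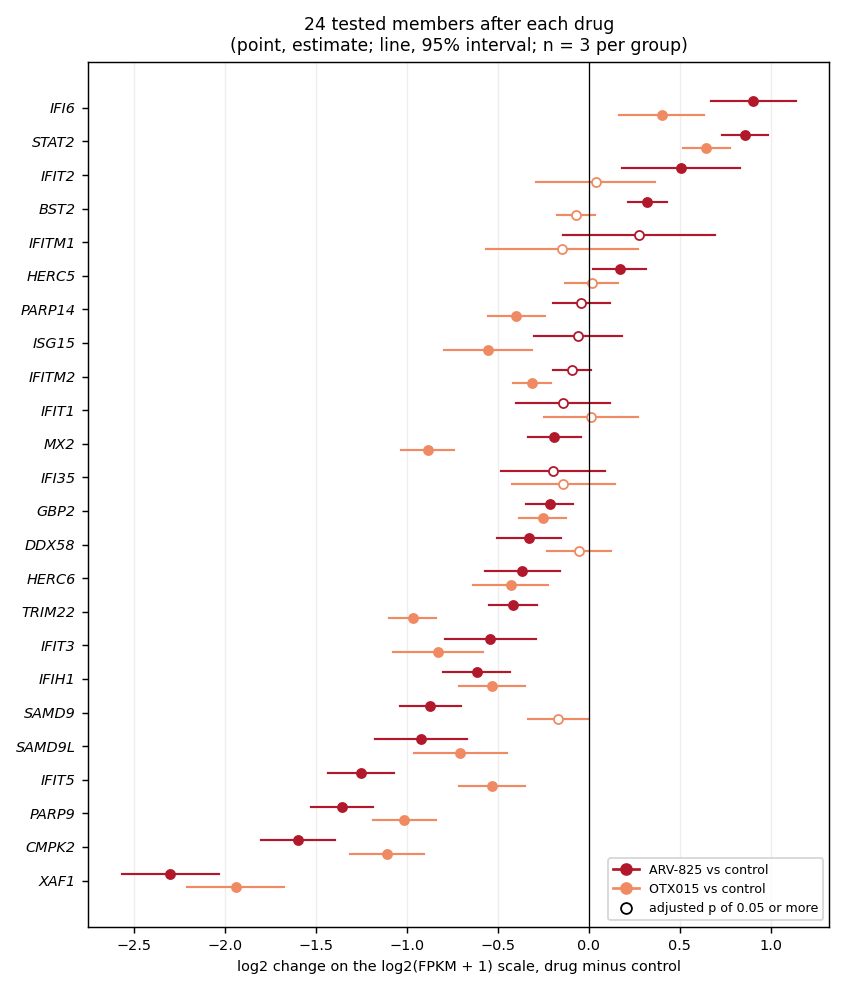
Log2 change on the log2(FPKM + 1) scale (horizontal axis, drug minus control) of the 24 tested interferon-stimulated genes with ARV-825 and with OTX015, as limma estimates (points) with 95% intervals (lines), 3 libraries per group and open points for an adjusted p of 0.05 or more. XAF1 lies lowest with both drugs, at -2.30 and -1.94, and IFI6 and STAT2 lie above 0 with both.

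XAF1, a pro-apoptotic antagonist of the apoptosis inhibitor XIAP, showed the largest change of the tested genes on the log2(FPKM + 1) scale. By the ratio of group means, the untested OAS1 and OAS2 (lower with ARV-825 by factors of 20.9 and 15.2) were further apart than XAF1 (9.05). Both were at levels under 1 FPKM. XAF1 read 1.13, 0.576 and 1.10 FPKM with ARV-825, 1.73, 1.29 and 1.37 FPKM with OTX015, and 8.64, 8.76 and 7.97 FPKM in control. Every drug library lay below every control library. The log2 change was -2.30 ± 0.12 (SE) with ARV-825 (limma adjusted p = 3.51e-08) and -1.94 ± 0.12 with OTX015 (limma adjusted p = 1.84e-07). In the shRNA table XAF1 averaged 11.2 ± 0.895 FPKM with RUNX1 shRNA and 12.2 ± 0.788 FPKM with shNT (SD, n = 3 each), and the log2 change of -0.12 did not pass (limma adjusted p = 0.240). XAF1 overlaps an annotated gene on the opposite strand, PRAL, and the labels do not state whether reads were counted by strand.

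CMPK2, which makes nucleotide precursors in mitochondria and lies next to RSAD2 in the genome, came next on the same scale. CMPK2 read 1.10, 1.14 and 1.11 FPKM with ARV-825, 2.25, 1.93 and 1.76 FPKM with OTX015, and 4.96, 5.21 and 6.14 FPKM in control. The 3 groups were fully separate, in the order ARV-825, OTX015, control from low to high. Its log2 change was -1.60 ± 0.09 with ARV-825 (limma adjusted p = 6.62e-08) and -1.11 ± 0.09 with OTX015 (limma adjusted p = 1.57e-06). With RUNX1 shRNA it moved the other way, to 26.8, 24.3 and 26.2 FPKM, against 20.5, 21.0 and 20.0 FPKM with shNT, a log2 change of 0.32 ± 0.05 (limma adjusted p = 0.00184).

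PARP9 is an ADP-ribosyltransferase family protein that works with the ubiquitin ligase DTX3L, its neighbour on the opposite strand. PARP9 read 0.575, 0.726 and 0.580 FPKM with ARV-825, 1.11, 1.06 and 1.02 FPKM with OTX015, and 3.00, 3.35 and 3.15 FPKM in control. The groups did not overlap, and the log2 changes were -1.36 ± 0.08 with ARV-825 (limma adjusted p = 6.20e-08) and -1.01 ± 0.08 with OTX015 (limma adjusted p = 8.35e-07). DTX3L, whose exons overlap those of PARP9, averaged 2.16 ± 0.196 FPKM with ARV-825, 2.73 ± 0.0567 FPKM with OTX015 and 8.57 ± 0.355 FPKM in control, and fell with both drugs (log2 changes -1.60 and -1.36). Reads from the shared exons cannot be told apart without strand. PARP14, a mono-ADP-ribosyltransferase a few genes away, was called lower with OTX015 alone: it read 14.5, 16.4 and 14.3 FPKM with ARV-825, 10.8, 11.2 and 12.7 FPKM with OTX015, and 15.4, 15.7 and 15.5 FPKM in control.

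The IFIT genes form a cluster on chromosome 10 and encode related antiviral proteins, some of which bind foreign RNA by its end. The 4 neighbours did not move together. IFIT5 read 0.450, 0.709 and 0.567 FPKM with ARV-825, 1.66, 1.60 and 1.50 FPKM with OTX015, and 2.81, 2.68 and 2.76 FPKM in control, with log2 changes of -1.25 ± 0.08 (limma adjusted p = 1.78e-07) and -0.54 ± 0.08 (limma adjusted p = 0.000161) for the 2 drugs. IFIT3 fell with both, to 3.21 ± 0.461 FPKM with ARV-825 and 2.46 ± 0.453 FPKM with OTX015, against 5.11 ± 0.349 FPKM in control (SD, n = 3 each). IFIT2 rose with ARV-825 to 4.10, 4.62 and 6.30 FPKM, against 2.85, 2.94 and 3.80 FPKM in control (log2 change 0.51, limma adjusted p = 0.00919), and was not called with OTX015 (log2 change 0.04, 95% interval -0.29 to 0.36). IFIT1 averaged 0.928 ± 0.335 FPKM with ARV-825, 1.13 ± 0.125 FPKM with OTX015 and 1.11 ± 0.0745 FPKM in control, and passed with neither drug. So within 1 cluster the test found 2 genes lower, 1 higher and 1 not called after ARV-825. Of 50-base stretches of IFIT2, 7.50% also occur in other genes.

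Both RNA sensors fell with ARV-825. IFIH1 (MDA5), which senses long double-stranded RNA, averaged 2.19 ± 0.231 FPKM with ARV-825, 2.39 ± 0.177 FPKM with OTX015 and 3.89 ± 0.235 FPKM in control, and fell with both drugs (log2 changes -0.62 and -0.53). DDX58 (RIG-I), which senses RNA with a free triphosphate end, averaged 1.67 ± 0.169 FPKM with ARV-825, 2.23 ± 0.164 FPKM with OTX015 and 2.35 ± 0.0899 FPKM in control. It fell with ARV-825 (log2 change -0.33, limma adjusted p = 0.00328) and was not called with OTX015 (log2 change -0.05, limma adjusted p = 0.559).

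STAT2, the subunit of ISGF3 that carries its activation domain, ran against the majority. STAT2 read 32.3, 30.8 and 28.2 FPKM with ARV-825, 25.1, 26.2 and 27.2 FPKM with OTX015, and 15.7, 16.7 and 16.5 FPKM in control. Every drug library was above every control library, and the log2 changes were 0.86 ± 0.06 (limma adjusted p = 2.11e-07) and 0.65 ± 0.06 (limma adjusted p = 2.59e-06). IFI6, a small membrane protein that counters cell death, also rose with both. IFI6 read 7.03, 7.55 and 6.10 FPKM with ARV-825, 4.43, 5.43 and 3.88 FPKM with OTX015, and 3.21, 3.28 and 3.12 FPKM in control, with log2 changes of 0.91 ± 0.11 (limma adjusted p = 1.55e-05) and 0.40 ± 0.11 (limma adjusted p = 0.00578). STAT2, IFI6 and the other genes beyond XAF1, CMPK2, PARP9 and IFIT5 were given by library after their values were seen.

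**Figure D3:**
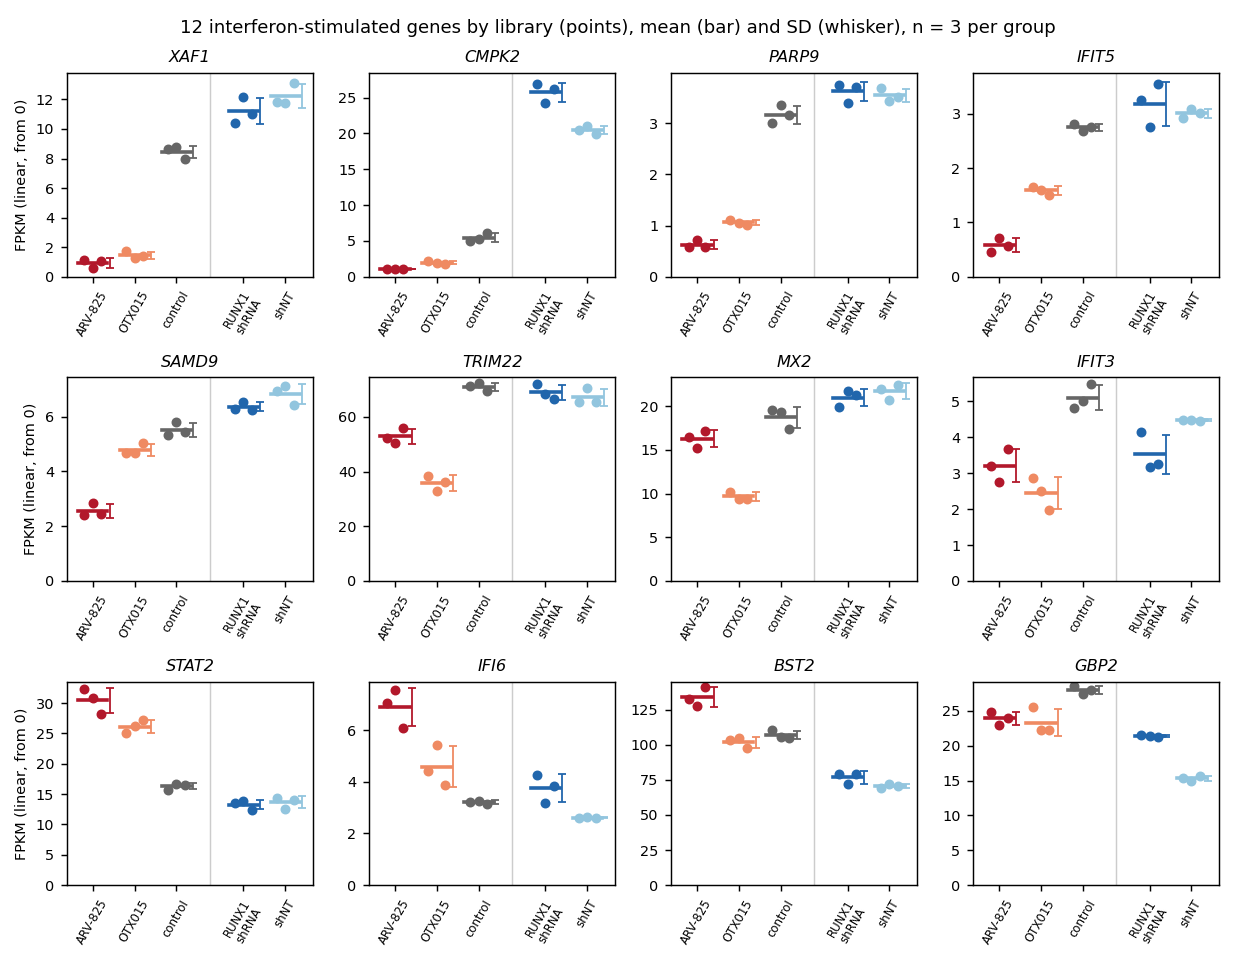
FPKM (linear, from 0) of 12 interferon-stimulated genes in each of the 15 libraries (points), with the mean (bar) and SD (whisker) of the 3 libraries of a group, the drug table left of the grey line and the shRNA table right of it, normalized separately. XAF1, CMPK2, PARP9 and IFIT5 are lowest with ARV-825, TRIM22 and MX2 are lowest with OTX015, and STAT2 and IFI6 are highest with ARV-825.

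Among the membrane restriction factors, BST2 rose with ARV-825 to 133, 128 and 141 FPKM, against 111, 106 and 105 FPKM in control (log2 change 0.32 ± 0.05, limma adjusted p = 0.000108). With OTX015 it read 103, 105 and 97.5 FPKM, overlapping control. IFITM2 read 312, 299 and 318 FPKM with ARV-825, 269.9, 275 and 252 FPKM with OTX015, and 321, 331 and 339 FPKM in control. It fell with OTX015 (log2 change -0.31, limma adjusted p = 0.000141) and was not called with ARV-825 (log2 change -0.09, limma adjusted p = 0.0984). IFITM1 passed with neither drug, and IFITM3 was below 0.4 FPKM in each drug library. The IFITM genes are neighbours that share part of their sequence. Of 50-base stretches, 34.1% of those of IFITM2, 32.0% of IFITM1 and 17.4% of IFITM3 also occur in other genes. The division of reads among the IFITM genes is therefore uncertain.

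ISG15, a ubiquitin-like protein attached to other proteins, was called lower with OTX015 alone. ISG15 read 10.3, 12.8 and 11.1 FPKM with ARV-825, 8.92, 7.90 and 6.59 FPKM with OTX015, and 13.02, 10.8 and 11.9 FPKM in control, with a log2 change of -0.56 ± 0.11 with OTX015 (limma adjusted p = 0.000946) and -0.06 with ARV-825 (limma adjusted p = 0.622). HERC5, the ligase that attaches ISG15 in human cells, averaged 14.4 ± 0.514 FPKM with ARV-825, 12.9 ± 0.892 FPKM with OTX015 and 12.7 ± 0.836 FPKM in control. Its rise with ARV-825 was small (log2 change 0.17, limma adjusted p = 0.0376) and did not pass without ARV-825 replicate 1, ARV-825 replicate 3 or control replicate 1 (limma adjusted p = 0.0940, 0.0915 and 0.143; over 15 alternatives the range was 0.00646 to 0.143). HERC6, the neighbouring paralogue, fell with both drugs (log2 changes -0.37 and -0.43).

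MX2 and TRIM22 fell with both drugs and were lower with OTX015 than with ARV-825. MX2, a dynamin-like GTPase that blocks retroviruses at the nuclear pore, read 16.5, 15.2 and 17.2 FPKM with ARV-825, 10.2, 9.40 and 9.42 FPKM with OTX015, and 19.6, 19.3 and 17.4 FPKM in control. The log2 change was -0.89 ± 0.07 with OTX015 (limma adjusted p = 7.13e-07) and -0.19 ± 0.07 with ARV-825 (limma adjusted p = 0.0225), and the second did not pass without ARV-825 replicate 2, control replicate 1 or control replicate 2 (limma adjusted p = 0.0821, 0.0792 and 0.0762), nor after median-ratio rescaling (limma adjusted p = 0.0636; over 15 alternatives the range was 0.0117 to 0.0821). TRIM22 read 52.3, 50.6 and 56.0 FPKM with ARV-825, 38.5, 32.9 and 36.3 FPKM with OTX015, and 71.2, 72.4 and 69.4 FPKM in control, so all 3 groups were separate. GBP2 fell by 0.22 with ARV-825 and by 0.25 with OTX015 on the log2 scale. Of 50-base stretches, 12.1% of those of TRIM22 and 10.2% of those of GBP2 also occur in other genes.

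SAMD9 and SAMD9L are neighbouring genes on chromosome 7 that restrain protein synthesis and cell growth, and inherited mutations of either cause bone marrow failure. SAMD9 read 2.39, 2.85 and 2.45 FPKM with ARV-825, 4.67, 4.67 and 5.05 FPKM with OTX015, and 5.33, 5.80 and 5.42 FPKM in control. It fell with ARV-825 (log2 change -0.87 ± 0.08, limma adjusted p = 1.54e-06). With OTX015 its 3 libraries lay below control, but the log2 change of -0.17 did not pass (limma adjusted p = 0.0655). It passed there without ARV-825 replicate 2, whose libraries enter the shared estimate of the spread (limma adjusted p = 0.0420; over 14 alternatives the range was 0.0350 to 0.195). SAMD9L read 0.468, 0.886 and 0.529 FPKM with ARV-825, 0.949, 0.762 and 0.934 FPKM with OTX015, and 1.96, 2.45 and 1.83 FPKM in control, and fell with both drugs (log2 changes -0.92 and -0.71). IFI35, a partner of NMI, averaged 7.65 ± 1.99 FPKM with ARV-825, 7.85 ± 0.433 FPKM with OTX015 and 8.75 ± 0.276 FPKM in control and passed with neither. ARV-825 replicate 3 was the highest ARV-825 library for IFI35, IFIT1, IFIT2 and IFITM1. Without that library, IFI35 and IFIT1 passed as lower with ARV-825 than in control (log2 changes -0.38 and -0.28, limma adjusted p = 0.00108 and 0.0206; over their alternatives the ranges were 0.00108 to 0.593 and 0.0206 to 0.789).

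Of the 39 genes, 15 averaged below 1 FPKM over the drug libraries and were not tested: OAS1, OAS2, OAS3, OASL, USP18, MX1, GBP1, IFI27, IFI44, IFI44L, IFITM3, ISG20, RSAD2, EPSTI1 and LGALS3BP. In 8 of them all ARV-825 libraries lay below all control libraries, in 2 above, and in 5 the groups overlapped. Of all 6286 genes above 0 and under the same mean, 19.2% lay below and 14.4% above. With OTX015, 9 lay below, against 16.9% of these genes, and 6 overlapped. The oligoadenylate synthetases, which make the messenger that activates RNase L on meeting double-stranded RNA, are examples. OAS2 read 0.00177, 0.0382 and 0.0274 FPKM with ARV-825, 0.0275, 0.0407 and 0.0527 FPKM with OTX015, and 0.207, 0.363 and 0.456 FPKM in control. USP18, which removes ISG15 from proteins and damps receptor signalling, read 0.213, 0.0573 and 0.174 FPKM with ARV-825, 0.206, 0.202 and 0.245 FPKM with OTX015, and 0.943, 0.834 and 0.952 FPKM in control. IFI27, a relative of IFI6, went the other way with the degrader: it read 1.80, 1.41 and 1.21 FPKM with ARV-825, 0.309, 0.193 and 0.141 FPKM with OTX015, and 0.264, 0.204 and 0.411 FPKM in control. LGALS3BP, a secreted galectin-binding protein, was also above control in each ARV-825 library, at 0.257 to 0.385 FPKM, against 0.0676 to 0.113 FPKM in control. When no filter on low values was applied, limma called 7 of the 15 lower and 2 higher with ARV-825, in a fit that called 29.2% of its 17105 genes lower and 25.8% higher, and 9 lower with OTX015, against 24.9% of all. IFI44 averaged 0.226 ± 0.156 FPKM with ARV-825, 0.257 ± 0.101 FPKM with OTX015 and 1.12 ± 0.123 FPKM in control (SD, n = 3 each). USP18 shares 23.4% of its 50-base stretches with other genes, chiefly USP41.

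**Figure D4:**
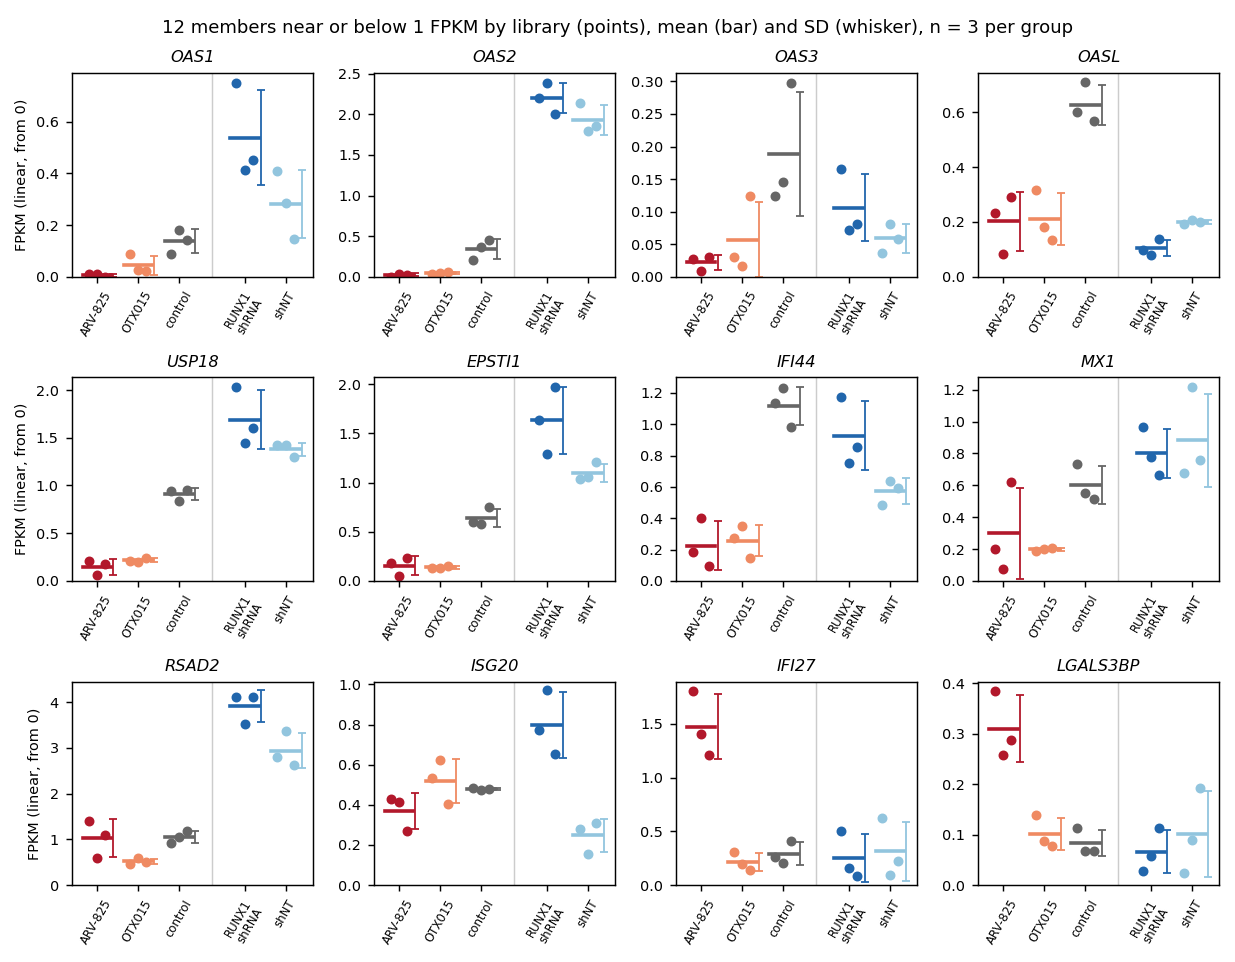
FPKM (linear, from 0) in each of the 15 libraries (points) of 12 interferon-stimulated genes that averaged below 1 FPKM over the drug libraries, with the mean (bar) and SD (whisker) of the 3 libraries of a group. The drug table is left of the grey line and the shRNA table right of it, normalized separately. RSAD2, OAS2, USP18 and EPSTI1 averaged above 1 FPKM in both groups of the shRNA table. USP18, EPSTI1, IFI44 and OAS2 lie lower with both drugs than in control, and IFI27 and LGALS3BP lie highest with ARV-825.

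ARV-825 and OTX015 form 1 pair of structurally related compounds, compared at the same dose and time, with p-values adjusted over all 10819 tested genes. The linker and cereblon ligand separate them, and the members differed both ways: 10 of 24 were higher with ARV-825 (41.7%, against 24.7% of all tested genes), 6 were lower (25%, against 33.4%) and 8 were not called. The median log2 difference was 0.11, against -0.04 over all tested genes. No tested member reached 2-fold on the log2(FPKM + 1) scale, where changes of low genes are understated. By group means IFIT5 was further apart, at 0.575 FPKM with ARV-825 and 1.59 FPKM with OTX015. The untested IFI27 was further apart still, at 1.47 FPKM with ARV-825 and 0.214 FPKM with OTX015. With no filter on low values, limma called the untested IFI27, RSAD2 and LGALS3BP higher with ARV-825. The other 12 untested members were not called, in a fit that called 39.7% of its 17105 genes either way. Of the 24 tested members, higher with ARV-825 than with OTX015 were MX2 (log2 difference 0.70 ± 0.07, limma adjusted p = 1.36e-05), TRIM22 (0.55 ± 0.06, limma adjusted p = 2.72e-05), IFI6 (0.50), ISG15 (0.49), IFIT2 (0.47), BST2 (0.39), PARP14 (0.36), IFIT3 (0.29), IFITM2 (0.22) and STAT2 (0.21). For MX2, TRIM22, ISG15, PARP14, IFIT3 and IFITM2 the ARV-825 mean lay between OTX015 and control, while for STAT2, IFI6, IFIT2 and BST2 it lay above both. Lower with ARV-825 were IFIT5 (log2 difference -0.72 ± 0.08, limma adjusted p = 4.26e-05), SAMD9 (-0.70 ± 0.08, limma adjusted p = 2.94e-05), CMPK2 (-0.49), XAF1 (-0.36), PARP9 (-0.34) and DDX58 (-0.27), each with the ARV-825 mean lowest of the 3 drug table groups.

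The other 8 tested members did not pass, and their intervals bound the difference. The 95% interval of the log2 difference was -0.09 to 0.17 for GBP2, -0.27 to 0.10 for IFIH1, -0.14 to 0.27 for HERC6, 0.01 to 0.30 for HERC5, -0.34 to 0.23 for IFI35, -0.41 to 0.10 for IFIT1, -0.47 to 0.04 for SAMD9L and 0.00 to 0.84 for IFITM1. Some calls between the drugs were lost in single alternatives. IFIT3, whose libraries overlapped (3.20, 2.75 and 3.68 FPKM with ARV-825, against 2.88, 2.51 and 1.98 FPKM with OTX015), passed in 2 of the 9 fits that left out 1 library, those without ARV-825 replicate 2 or OTX015 replicate 1, with adjusted p from 0.0205 to 0.176 over 14 alternatives. XAF1 did not pass without ARV-825 replicate 2 (limma adjusted p = 0.0715), OTX015 replicate 1 (limma adjusted p = 0.0994) or with no filter on low values (limma adjusted p = 0.0579), in a range of 0.0176 to 0.0994. IFIT2 did not pass without ARV-825 replicate 3 (limma adjusted p = 0.0630), OTX015 replicate 3 (limma adjusted p = 0.0723) or with no filter (limma adjusted p = 0.0516), in a range of 0.00929 to 0.0723, and DDX58 did not pass without OTX015 replicate 1 (limma adjusted p = 0.0538, range 0.00444 to 0.0538). Without 1 library the reverse held for IFI35 and IFIT1 (ARV-825 replicate 3, limma adjusted p = 0.0215 and 0.0234, ranges 0.0215 to 0.997 and 0.0234 to 0.737), SAMD9L (ARV-825 replicate 2, limma adjusted p = 0.0234, range 0.0234 to 0.344), IFITM1 (ARV-825 replicate 1, limma adjusted p = 0.0291, range 0.0291 to 0.271) and HERC5 (OTX015 replicate 2, limma adjusted p = 0.0307, range 0.0122 to 0.186), which then passed.

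With RUNX1 shRNA, 6 of these genes rose and 2 fell, none by 2-fold, and the 8 together are a share near that of all tested genes (27.4%). Of 26 tested in the shRNA table, those that rose were 23.1%, against 13.5% of all 10925 tested genes, those that fell were 7.69%, against 13.8%, and 18 were not called. The median log2 change was 0.05, against -0.01 over all tested genes. The lowest adjusted p was that of GBP2, a guanylate-binding GTPase, which read 21.5, 21.3 and 21.3 FPKM with RUNX1 shRNA and 15.4, 14.9 and 15.7 FPKM with shNT. The groups lay well apart, with a log2 change of 0.46 ± 0.04 (limma adjusted p = 0.000122). The other rises were IFI6 (0.40), RSAD2 (0.32), CMPK2 (0.32), PARP14 (0.26) and IFITM2 (0.15). IFI6 read 4.27, 3.19 and 3.83 FPKM with RUNX1 shRNA, against 2.59, 2.63 and 2.60 FPKM with shNT. HERC5 fell to 8.90, 7.07 and 8.17 FPKM with RUNX1 shRNA, against 10.8, 10.9 and 10.7 FPKM with shNT (log2 change -0.39 ± 0.08, limma adjusted p = 0.00656). IFIT3 fell to 4.15, 3.18 and 3.25 FPKM, against 4.49, 4.49 and 4.45 FPKM with shNT (log2 change -0.28, limma adjusted p = 0.0474).

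RSAD2 (viperin), which makes a nucleotide that stops viral RNA synthesis, read 4.11, 3.52 and 4.11 FPKM with RUNX1 shRNA and 2.81, 3.38 and 2.64 FPKM with shNT (limma adjusted p = 0.0339). The separation was narrow, and the RSAD2 and IFIT3 calls were the least stable of the comparison. RSAD2 passed in 2 of the 6 fits that left out 1 library, those without RUNX1 shRNA replicate 2 or shNT replicate 2 (limma adjusted p from 0.0252 to 0.117 over 11 alternatives). IFIT3 passed in 1 of 6, that without RUNX1 shRNA replicate 1 (limma adjusted p from 0.00990 to 0.118 over 11 alternatives). BST2 and EPSTI1 passed as higher without RUNX1 shRNA replicate 2 (limma adjusted p = 0.00774 and 0.0216, ranges 0.00774 to 0.180 and 0.0216 to 0.150), and IFITM1 as lower without RUNX1 shRNA replicate 1 (limma adjusted p = 0.0334, range 0.0334 to 0.241). Of the 4 genes that fell at least 2-fold on the log2(FPKM + 1) scale with ARV-825, CMPK2 rose with RUNX1 shRNA. XAF1, PARP9 and IFIT5 did not pass with RUNX1 shRNA (log2 changes -0.12, 0.02 and 0.06). Of the 13 genes too low to test in the shRNA table, ISG20, an RNA exonuclease, read 0.771, 0.973 and 0.651 FPKM with RUNX1 shRNA and 0.278, 0.155 and 0.309 FPKM with shNT, and IFIT2 averaged 0.415 ± 0.0503 FPKM with RUNX1 shRNA and 0.493 ± 0.0179 FPKM with shNT (SD, n = 3 each). In all, 3 of the 13 lay higher in every RUNX1 shRNA library than in every shNT library, 2 lay lower and 8 overlapped, against 4.61% higher and 9.05% lower of all 5602 genes above 0 and under the same mean.

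**Figure D5:**
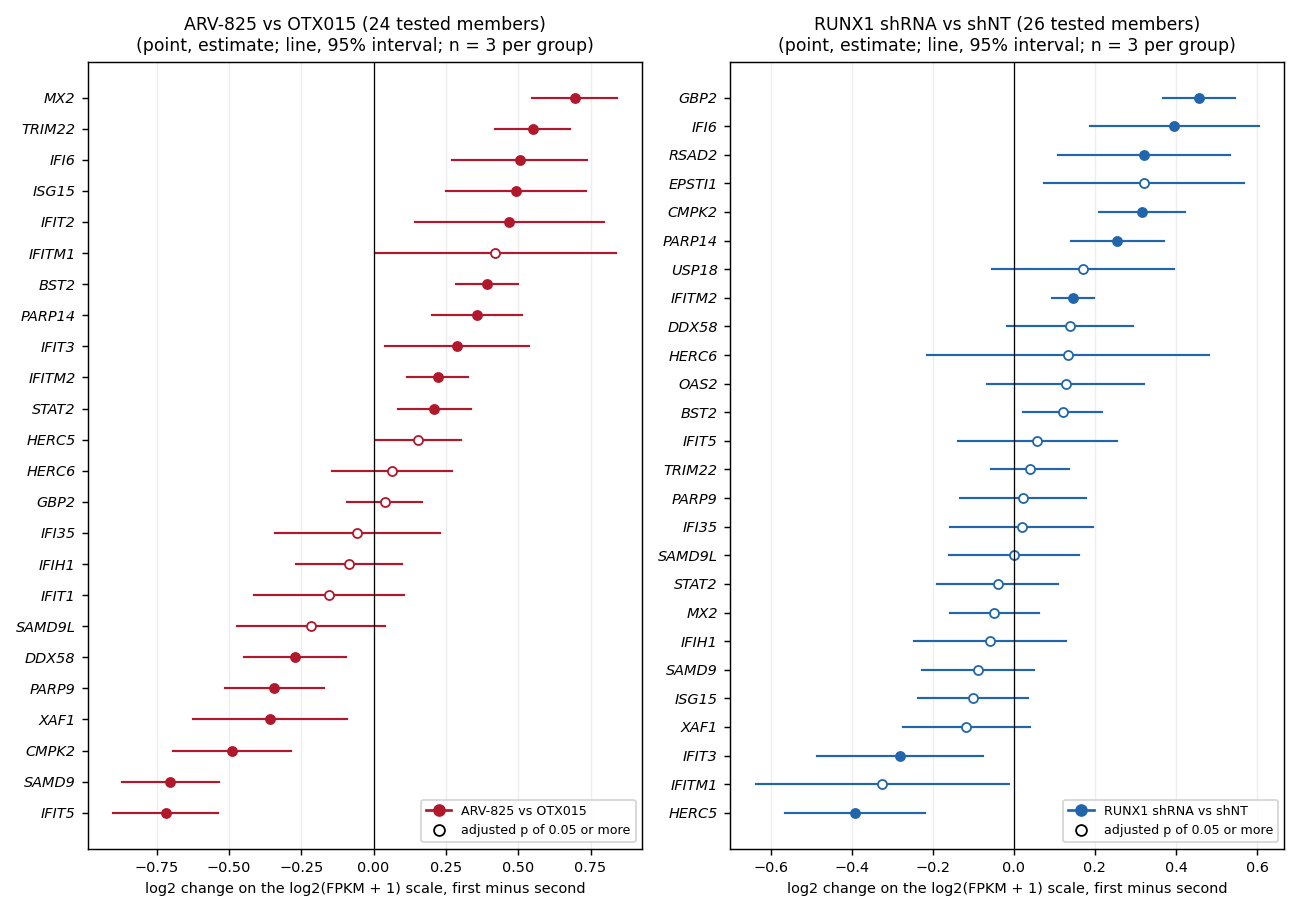
Log2 change on the log2(FPKM + 1) scale (horizontal axes) of the 24 tested interferon-stimulated genes with ARV-825 against OTX015 (left) and of the 26 tested with RUNX1 shRNA against shNT (right), as limma estimates (points) with 95% intervals (lines), 3 libraries per group and open points for an adjusted p of 0.05 or more. MX2 and TRIM22 lie highest and IFIT5 and SAMD9 lowest on the left, and the right axis is narrower, with GBP2 highest at 0.46.

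Upstream signalling genes moved in both directions with each drug. Of 10 tested genes for receptors, kinases and the rest of ISGF3, 4 rose and 5 fell with ARV-825 (40% and 50%, against 35.8% and 38.4% of all tested genes). With OTX015, 6 rose and 2 fell (60% and 20%, against 36.1% and 33.5%). With RUNX1 shRNA 1 rose (TYK2, log2 change 0.17), which is 10%, against 13.5% of all tested genes. The receptor subunit IFNAR1 fell with both drugs, to 8.49 ± 0.515 FPKM with ARV-825 and 13.3 ± 0.217 FPKM with OTX015, against 17.3 ± 0.693 FPKM in control. IFNGR2, a subunit of the interferon gamma receptor, had a log2 change of -1.12 with ARV-825. It was the only gene of this list past 2-fold on the log2(FPKM + 1) scale. The kinase JAK1 rose with both drugs (log2 changes 0.63 and 0.69). IRF9, the DNA-binding subunit of ISGF3, moved in opposite directions with the drugs. IRF9 read 9.36, 8.09 and 7.18 FPKM with ARV-825, 15.1, 15.5 and 16.9 FPKM with OTX015, and 8.68, 11.7 and 10.2 FPKM in control, so it fell with ARV-825, with overlapping libraries (log2 change -0.28, limma adjusted p = 0.0364) and rose with OTX015 (log2 change 0.60, limma adjusted p = 0.000522). STAT2 rose with both. IFNAR1, JAK1, TYK2, IRF9 and, among the factors described next, IRF1 and IRF8 were chosen after their values were seen.

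The interferon regulatory factors held the largest changes of the pathway. IRF7, the inducer of interferon alpha genes and itself an interferon target, read 46.6, 49.4 and 44.9 FPKM with ARV-825, 49.3, 49.0 and 47.1 FPKM with OTX015, and 4.86, 5.59 and 4.97 FPKM in control. The log2 changes were 2.97 and 3.01, and the drugs did not differ by the test (log2 difference -0.05, 95% interval -0.17 to 0.08). IRF5 fell with both (log2 changes -2.73 and -1.91). IRF1 read 20.8, 22.0 and 22.1 FPKM with ARV-825, 44.8, 44.5 and 43.0 FPKM with OTX015, and 21.7, 24.8 and 24.4 FPKM in control. Of the 7 tested factors, 1 rose and 4 fell with ARV-825 (14.3% and 57.1%, against 35.8% and 38.4% of all tested genes), and 3 rose and 3 fell with OTX015 (42.9% each, against 36.1% and 33.5% of all tested genes). With RUNX1 shRNA, IRF5 and IRF8 fell (log2 changes -0.32 and -0.31), or 28.6%, against 13.8% of all tested genes. The other 5 tested factors were not called.

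With each drug, sensing genes fell more often than they rose, and negative regulators were called at shares near those of all genes. Of 12 tested sensors, adaptors and kinases, 8 fell and 1 rose with ARV-825 (66.7% and 8.33%, against 38.4% and 35.8% of all tested genes), and 7 fell and 2 rose with OTX015 (58.3% and 16.7%, against 33.5% and 36.1%). IKBKE, a kinase that activates interferon regulatory factors, fell with both (log2 changes -1.86 and -1.30), as did the adaptor TRAF3 (-1.24 and -1.35). IFI16, a DNA sensor, and the adaptor MYD88 fell past 2-fold with ARV-825 (-1.43 and -1.08). Of 19 negative regulators, 6 rose and 7 fell with ARV-825 (31.6% and 36.8%), and 8 rose and 6 fell with OTX015 (42.1% and 31.6%). SOCS3, a feedback inhibitor of JAK kinases, rose most, to 25.9 ± 0.952 FPKM with ARV-825 and 17.1 ± 0.400 FPKM with OTX015, against 5.19 ± 0.205 FPKM in control. RNASEH2B, a subunit of the enzyme that removes RNA from DNA, fell with both (log2 changes -1.11 and -1.10), and the phosphatase PTPN6 and the ubiquitin ligase RNF125 fell past 2-fold with ARV-825 (-1.65 each). PIAS1, a SUMO ligase that restrains the pathway, rose with ARV-825 (1.11). With RUNX1 shRNA, 3 of the 12 sensing genes rose and 1 fell (25% and 8.33%, against 13.5% and 13.8% of all tested genes). Of the 19 negative regulators, 1 rose and 3 fell with RUNX1 shRNA (5.26% and 15.8%). Of 50 further interferon-stimulated genes, 39 were tested in the drug table, and 25 fell and 8 rose with ARV-825 (64.1% and 20.5%, against 38.4% and 35.8% of all tested genes). With OTX015, 27 fell and 7 rose (69.2% and 17.9%, against 33.5% and 36.1%). The death ligand TNFSF10 (TRAIL) fell with both (log2 changes -1.81 and -1.79), as did APOL6 (-1.69 and -1.37). Past 2-fold on the log2(FPKM + 1) scale, 10 of the 39 fell and 1 rose with ARV-825, and 7 fell and 1 rose with OTX015. Of all 10819 tested genes, 8.16% fell and 476 genes rose that far with ARV-825. With OTX015, 4.96% fell and 325 genes rose that far. The 6 largest changes with each drug also included DTX3L, GBP3 (-1.56) and APOL2 (-1.30) with ARV-825, and DTX3L, TRIM14 (-1.74), PNPT1 (-1.06) and PARP10 (-1.06) with OTX015. ZC3HAV1, which degrades viral RNA, rose with ARV-825 (1.32) and was higher with ARV-825 than with OTX015 (log2 difference 1.11, limma adjusted p = 1.25e-06). With RUNX1 shRNA, 9 of 44 tested rose and 3 fell (20.5% and 6.82%, against 13.5% and 13.8%), none past 2-fold on the log2(FPKM + 1) scale.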

How the data were processed

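The authors deposited 2 gene tables, 1 for the 9 drug libraries and 1 for the 6 shRNA libraries. Reads were processed with TopHat2 2.0 and Cufflinks 2.0 on hg19, per the submitters' processing notes. The deposited values were read as FPKM, quantile normalized within each table, and the tables state no unit. Library medians in the drug table still differed by group. They were 1.80 to 1.92 FPKM with ARV-825, 2.06 to 2.10 FPKM with OTX015 and 2.15 to 2.20 FPKM in control. The cause was not tested. Strand, and whether poly(A) RNA was selected, are not given in the sources used here. Of 19620 entries per table, 16 pseudoautosomal Y copies were left out. Values were transformed to log2(FPKM + 1), genes averaging under 1 FPKM across the libraries fitted were dropped, and limma 3.58.1 in R 4.3.3 tested the rest (lmFit, eBayes with trend; two-sided; Benjamini-Hochberg adjusted p under 0.05). The drug fit gave 3 contrasts and the shRNA fit gave 1. The procedure was tested on simulated data. The alternatives were a pseudocount of 0.1, no filter, a mean of at least 5 FPKM, no trend, median-ratio rescaling, a replicate block, and leaving out each library. The members and gene lists were chosen with earlier results of these data known. Values in every library were set for members past the threshold with an absolute log2 change of at least 1, or of at least 0.5 with RUNX1 shRNA. Genes of other lists were named past the same threshold and a change of at least 1, at most 6 per contrast and list; the text says where others were added. Promoter sequences come from RefSeq (GRCh38.p14). Some genes are not reported here.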

Additional observations from a re-analysis of the deposited data

How the results depend on the processing

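Of 1337 member values recomputed under the alternatives, 1260 kept their direction and side of the threshold, 38 no longer passed, 17 newly passed and 22 changed sign, none of them called before or after. Median-ratio rescaling turned PARP14 with ARV-825 to 0.0041 and SAMD9L with RUNX1 shRNA to 0.011. Leaving out 1 library gave log2 ranges across 0 of -0.037 to 0.049 for HERC5, -0.016 to 0.061 for IFIT1 and -0.028 to 0.149 for IFIT2 with OTX015, and -0.142 to 0.0021 for ISG15 with ARV-825. With ARV-825 against OTX015 they were -0.028 to 0.125 for HERC6 and -0.235 to 0.068 for IFI35. With RUNX1 shRNA they were -0.060 to 0.244 for HERC6, -0.045 to 0.094 for IFI35, -0.0052 to 0.135 for IFIT5, -0.034 to 0.037 for SAMD9L and -0.098 to 0.0042 for STAT2. Of 58 calls, 50 passed in every alternative in which the gene was tested. With a mean of at least 5 FPKM, which tests fewer genes, 3 members fell and 3 rose with ARV-825, and 6 fell and 1 rose with OTX015. In such fits 0 were lower with ARV-825 than with OTX015, and 1 fell with RUNX1 shRNA. The mean includes the treated libraries, so a fall can remove a gene. All 6 members called lower with ARV-825 than with OTX015 in the main fit were below that mean. The 0 was therefore fixed by the filter. Of all genes called at that level, 50.5% rose with ARV-825, 53.0% with OTX015 and 49.9% with RUNX1 shRNA. Of those called between the drugs, 44.9% were higher with ARV-825. With no filter, 20 fell with ARV-825 and 23 with OTX015, against 29.2% and 24.9% of all 17105 genes in that fit. Median-ratio rescaling left 1 member lower with RUNX1 shRNA, and the cause was not tested. Leaving out 1 library at a time gave 12 to 15 lower and 4 to 5 higher with ARV-825, 14 to 15 lower and 2 higher with OTX015, 4 to 8 lower and 8 to 10 higher with ARV-825 against OTX015, and 1 to 3 lower and 5 to 8 higher with RUNX1 shRNA. Over all genes, the calls then numbered 7492 to 8102, 6895 to 7689, 5573 to 6267 and 1997 to 2840 in the same 4 comparisons. Same-numbered replicates did not deviate together (correlations of -0.321 to 0.0613), so the numbers were not taken as a pairing. With the replicate block, 4 members rose and 13 fell with ARV-825, 2 rose and 14 fell with OTX015, 9 were higher and 6 lower with ARV-825 than with OTX015, and 5 rose and 1 fell with RUNX1 shRNA; calls over all genes were 7771, 7262, 5884 and 2585. Depth is unknown, so the precision of members below 1 FPKM cannot be stated.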
